A study of Mus musculus with 5 samples.

Results

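Fatty acid oxidation and ketone body formation in mouse liver were described through 37 genes, listed by name: those that bring fatty acids into the hepatocyte, those that shuttle and oxidise them in mitochondria and peroxisomes, and those that handle ketone bodies. The 37 genes were chosen with earlier results of these data known. Of these genes, 36 had at least 1 probe set annotated to them alone, out of 18194 such genes on the array, and Acsl1, a long-chain acyl-CoA synthetase gene, was not analysed here. The 36 genes had 62 probe sets in all, and the brightest probe set of a gene, by its mean log2 value, stood for it. The livers came from 5 inbred strains, namely NZW/LacJ, RIIIS/J, BALB/CByJ, FVB/NJ and C57BL/6J. All were males of 10 weeks with no treatment, and RNA of 3 animals was pooled for the 1 Affymetrix array of each strain. The study used the arrays to follow up an expression quantitative trait locus, a stretch of the genome whose genotype goes with the level of a transcript.

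The strains had no replicate arrays, so no test was made, no error between animals can be given, and every difference below is one between 5 pools. Probe sets of the same gene could give different strain orders, and only 15 genes had at least 2 above the floor on all arrays. Whether sequence differences between strains under the probes took part in any value was not tested. Values are normalised intensities on a linear scale. They compare strains for the same gene and say nothing of one gene's abundance against another's. In liver RNA, fewer cells that express a gene and less RNA per cell cannot be told apart. All 36 genes were above the detection floor on all 5 arrays, an intensity of 8.48, the 95th percentile of 84 probe sets for sensory receptors. Of the 18194 genes, 11872 were above it on at least 1 array, and these serve as the background for every count below.

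Long-chain fatty acids enter the hepatocyte, are joined to coenzyme A, pass into mitochondria as carnitine esters and are shortened by repeated rounds of dehydrogenation, hydration, a second dehydrogenation and thiolysis. Electrons from the first step leave through the electron transfer flavoprotein, and much of the acetyl-CoA becomes ketone bodies, which the liver exports and other organs burn in fasting. Peroxisomes shorten very long-chain and branched acids by a parallel set of enzymes, and the nuclear receptor PPAR-alpha drives many genes of both routes.

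The arrays were alike in the sum of hepatocyte markers and differed in markers of other cells. All 7 hepatocyte markers were above the floor on every array, and their summed intensity lay between 254974 and 290601. The brightest markers, such as Alb, weigh most in this sum. Single markers varied more, as Tat ran from 5872 in NZW/LacJ to 10050 in RIIIS/J, and RIIIS/J was highest for 6 of the 7. The 4 measured B cell markers summed to 16898 in FVB/NJ, against 94.2 to 226 on the other 4 arrays, where Cd79a was under the floor. The 4 measured exocrine pancreas markers summed to 35597 in RIIIS/J, against 697 to 1278 on the other 4 arrays, where Cpa1 and Cel were under the floor. The part of these other cells in the FVB/NJ and RIIIS/J values below was not tested.

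Uptake and binding genes were mostly level, with Cd36 the exception. Cd36, which encodes a fatty acid translocase of the plasma membrane, read 1027 in C57BL/6J, against 148 in BALB/CByJ, 248 in FVB/NJ, 397 in NZW/LacJ and 467 in RIIIS/J. C57BL/6J was thus 2.20-fold above the next strain, and BALB/CByJ was 1.68-fold below the next lowest. Its highest and lowest strains lay 6.96-fold apart. A further Cd36 probe set gave the same extremes, at 419 in C57BL/6J, against 98.6 in BALB/CByJ, 221 in FVB/NJ, 183 in NZW/LacJ and 198 in RIIIS/J. It is also expressed by macrophages, endothelium and fat cells. The 5 Kupffer cell markers summed to 2500.0 in C57BL/6J, within the 1656 to 3532 of the other strains, and the 5 endothelial markers summed to 2286 in C57BL/6J, against 1873 to 2277 on the other 4 arrays. Single Kupffer cell markers differed: Adgre1 (123) and Vsig4 (654) were highest in C57BL/6J, Clec4f and Cd5l in NZW/LacJ and Marco in FVB/NJ. Of 5 measured adipocyte markers Cidec, Lep and Retn were under the floor on every array and Adipoq on all but FVB/NJ, with the sum between 249 and 291. Whether other cells took part in the Cd36 difference was not tested.

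The remaining uptake genes stayed within a fold of 1.44. Slc27a2, an acyl-CoA synthetase and transporter of long and very long chains, read 26729.8 in C57BL/6J, against 24594 in BALB/CByJ, 23021 in FVB/NJ, 18596 in NZW/LacJ and 19183 in RIIIS/J. Slc27a5, which joins bile acids to coenzyme A, read 16141 in C57BL/6J, against 14835 in BALB/CByJ, 11531 in FVB/NJ, 14445 in NZW/LacJ and 14835 in RIIIS/J. C57BL/6J was the highest strain for both, by less than 1.5-fold. Fabp1, the liver fatty acid binding protein gene and a PPAR-alpha target, was among the most level members, at 89718 in BALB/CByJ, against 81199.9 in C57BL/6J, 84229 in FVB/NJ, 79512 in NZW/LacJ and 82389 in RIIIS/J. These were the highest values on their arrays, and whether an upper limit of signal took part was not tested. A further, dimmer Fabp1 probe set read 45891 in NZW/LacJ, against 56843 in C57BL/6J, 57382 in BALB/CByJ, 55459 in FVB/NJ and 54226 in RIIIS/J.

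Fabp1 was also the only one of the 31 members with a sequence in the RefSeq promoter table (GRCm38.p6) whose 250 bases upstream of the start held a strict direct repeat of the kind bound by PPAR-alpha with RXR. The repeat was searched on both strands as AGGNCANAGGNCA, where N is any base. It was in 2.94% of the 34 member promoters and in 0.338% of all 32851 promoters of this length. The Fabp1 promoter at chr6:71199629-71199878 on the plus strand is shown 5′ to 3′ with the match, which lies on the opposite strand and ends 54 bases before the start, in capitals.
Fabp1: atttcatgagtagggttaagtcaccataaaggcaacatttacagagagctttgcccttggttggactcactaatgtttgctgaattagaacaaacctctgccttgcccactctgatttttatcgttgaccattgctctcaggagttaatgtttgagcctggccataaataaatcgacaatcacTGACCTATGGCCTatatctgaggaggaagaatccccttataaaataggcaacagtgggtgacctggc
A match is a run of letters and was not tested as a binding site.

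**Figure D1:**
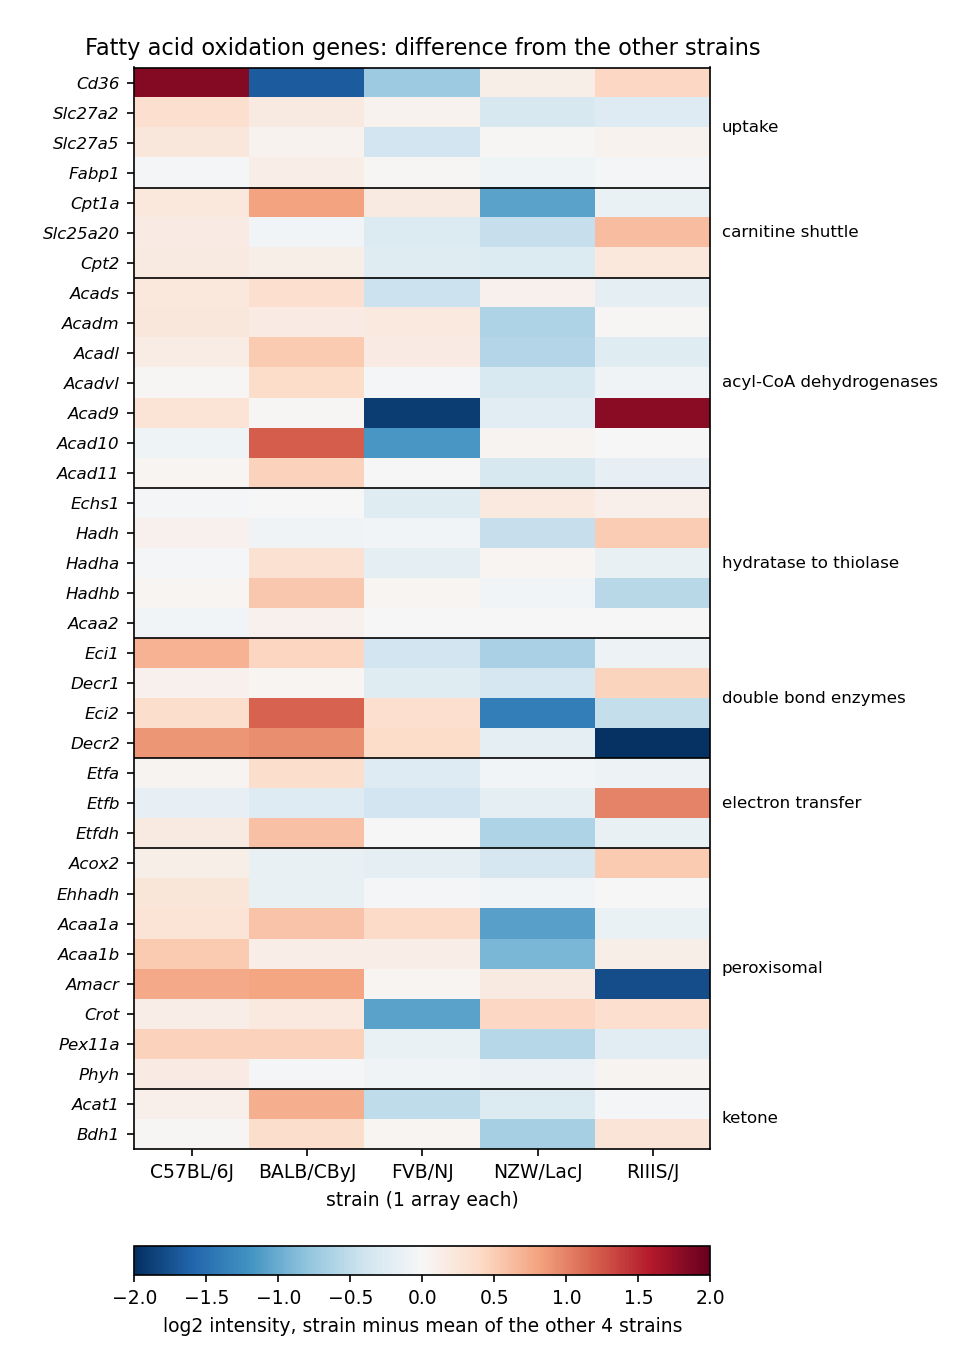
Log2 intensity of each strain minus the mean of the other 4 strains, for the 36 genes (rows, grouped by step) in the 5 strains (columns, 1 array each), with red above and blue below 0 and colours limited at 2 in each direction. Blue prevails in the NZW/LacJ column, where 28 of 36 genes lie below 0, and red in the C57BL/6J and BALB/CByJ columns, where 30 and 28 lie above 0.

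All 3 genes of the carnitine shuttle were lowest in NZW/LacJ. Cpt1a, the carnitine palmitoyltransferase of the outer mitochondrial membrane and the main control point of mitochondrial oxidation, read 1141 in NZW/LacJ, against 2309.9 in C57BL/6J, 3218 in BALB/CByJ, 2272 in FVB/NJ and 1908 in RIIIS/J. That is 1.67-fold below the next lowest strain, and BALB/CByJ was the highest. A further Cpt1a probe set had NZW/LacJ lowest too, at 668 in NZW/LacJ, against 1208 in C57BL/6J, 2445 in BALB/CByJ, 1036 in FVB/NJ and 912 in RIIIS/J. The other had RIIIS/J lowest, at 617 in RIIIS/J, against 1370.2 in C57BL/6J, 2518 in BALB/CByJ, 946 in FVB/NJ and 739 in NZW/LacJ. BALB/CByJ was highest on all 3 probe sets. Slc25a20, the translocase that carries acylcarnitines through the inner membrane, read 5010.2 in RIIIS/J, against 3914 in C57BL/6J, 3458 in BALB/CByJ, 3058 in FVB/NJ and 2756 in NZW/LacJ. Cpt2, the inner membrane transferase that restores the acyl-CoA, read 3190.2 in RIIIS/J, against 3139.9 in C57BL/6J, 3019 in BALB/CByJ, 2472 in FVB/NJ and 2428 in NZW/LacJ. For Cpt2 the RIIIS/J and C57BL/6J values lay within 1.02-fold of each other, as did the NZW/LacJ and FVB/NJ values.

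The acyl-CoA dehydrogenases of medium, long and very long chains had NZW/LacJ as their lowest strain. Acadm (medium chain) read 4861 in NZW/LacJ, against 7811 in C57BL/6J, 7545 in BALB/CByJ, 7656 in FVB/NJ and 6928 in RIIIS/J. Acadl (long chain) read 8358 in BALB/CByJ, against 6837 in C57BL/6J, 6857 in FVB/NJ, 4535 in NZW/LacJ and 5475 in RIIIS/J. Acadvl (very long chain) read 6345 in BALB/CByJ, against 5239.9 in C57BL/6J, 5118 in FVB/NJ, 4377 in NZW/LacJ and 4993 in RIIIS/J. The 3 genes spanned 1.61-fold, 1.84-fold and 1.45-fold between their extreme strains, and none had a strain 1.5-fold apart from its nearest neighbour. Acad11, a dehydrogenase placed in mitochondria or peroxisomes by different reports, read 7359 in BALB/CByJ, against 5808 in C57BL/6J, 5660.2 in FVB/NJ, 4757 in NZW/LacJ and 5208 in RIIIS/J, while its further probe set had RIIIS/J lowest, at 4114 and close to the 4227 of NZW/LacJ. Acads, the short-chain enzyme gene, had NZW/LacJ in the middle and FVB/NJ lowest, at 629 in FVB/NJ, against 900.1 in C57BL/6J, 967 in BALB/CByJ, 837 in NZW/LacJ and 718 in RIIIS/J.

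Acad9 and Acad10 varied more, and in other strains. Acad9, whose protein is known mainly for assembling respiratory complex I, read 944 in RIIIS/J, against 403 in C57BL/6J, 352 in BALB/CByJ, 121 in FVB/NJ and 309.6 in NZW/LacJ. RIIIS/J was 2.34-fold above the next strain and FVB/NJ 2.56-fold below the next lowest. A further Acad9 probe set had FVB/NJ lowest too and RIIIS/J no higher than NZW/LacJ, at 103 in RIIIS/J, against 115 in C57BL/6J, 108 in BALB/CByJ, 65.2 in FVB/NJ and 103 in NZW/LacJ, so these 2 probe sets disagreed on RIIIS/J. The remaining one, a dim probe set, was above the floor in RIIIS/J alone, at 11.5. Acad10, a less studied member of the family, read 507 in BALB/CByJ, against 247 in C57BL/6J, 136 in FVB/NJ, 268 in NZW/LacJ and 258 in RIIIS/J. BALB/CByJ was 1.89-fold above the next strain, and FVB/NJ was 1.82-fold below the next lowest.

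The hydratase, hydroxyacyl-CoA dehydrogenase and thiolase genes of the mitochondrial spiral varied little, and none of the 5 spanned 2-fold. Echs1, the short-chain enoyl-CoA hydratase gene, read 6169 in NZW/LacJ, against 5425 in C57BL/6J, 5534 in BALB/CByJ, 4845 in FVB/NJ and 5887 in RIIIS/J, and spanned 1.27-fold. Hadha and Hadhb encode both subunits of the trifunctional protein that completes the spiral on long chains. Hadha read 3502 in BALB/CByJ, against 2932 in C57BL/6J, 2682 in FVB/NJ, 3029 in NZW/LacJ and 2716 in RIIIS/J. Hadhb read 14349 in BALB/CByJ, against 10899 in C57BL/6J, 10899 in FVB/NJ, 10299 in NZW/LacJ and 7825 in RIIIS/J, and its lowest strain was RIIIS/J. The subunit genes had BALB/CByJ highest in common and differed in their lowest strain. A further Hadhb probe set had NZW/LacJ lowest, at 2421 in NZW/LacJ, against 3398 in C57BL/6J, 4395 in BALB/CByJ, 3419 in FVB/NJ and 3076 in RIIIS/J. Hadh, the short-chain hydroxyacyl-CoA dehydrogenase gene, read 29070.0 in RIIIS/J, against 23018 in C57BL/6J, 21060.3 in BALB/CByJ, 21264 in FVB/NJ and 16912 in NZW/LacJ. Acaa2, the mitochondrial thiolase gene, read 12346 in BALB/CByJ, against 11468 in C57BL/6J, 11769 in FVB/NJ, 11769 in NZW/LacJ and 11769 in RIIIS/J, so that 3 arrays carried exactly the same value. A further Acaa2 probe set read 16566 in C57BL/6J and 14200.3 in BALB/CByJ, against 6278 in FVB/NJ, 6664 in NZW/LacJ and 6691 in RIIIS/J and thus separated the strains where the chosen one did not. Across the step the median difference from the other strains was -0.01 on the log2 scale in NZW/LacJ, with 1 of 5 genes lowest there.

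Genes of the auxiliary enzymes for unsaturated chains varied widely, and 3 of 4 spanned at least 2-fold. Eci1, the mitochondrial enoyl-CoA isomerase gene, read 3537 in C57BL/6J, against 3061 in BALB/CByJ, 1954 in FVB/NJ, 1681 in NZW/LacJ and 2284 in RIIIS/J. Decr1, the mitochondrial dienoyl-CoA reductase gene, read 6878 in RIIIS/J, against 5652 in C57BL/6J, 5512 in BALB/CByJ, 4715 in FVB/NJ and 4488 in NZW/LacJ. A second Decr1 probe set also had NZW/LacJ lowest, at 187 in NZW/LacJ, against 579.8 in C57BL/6J, 543 in BALB/CByJ, 374 in FVB/NJ and 416 in RIIIS/J. Eci2, the isomerase gene of peroxisomes, read 6489.6 in BALB/CByJ, against 4095 in C57BL/6J, 4052 in FVB/NJ, 1573 in NZW/LacJ and 2584 in RIIIS/J. BALB/CByJ was 1.58-fold above the next strain, NZW/LacJ 1.64-fold below the next lowest, and the extremes lay 4.12-fold apart. Decr2, the peroxisomal dienoyl-CoA reductase gene, departed in another strain and read 644 in RIIIS/J, against 3139 in C57BL/6J, 3207 in BALB/CByJ, 2353 in FVB/NJ and 1718 in NZW/LacJ. RIIIS/J was 2.67-fold below the next lowest strain, NZW/LacJ.

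Electron transfer genes did not move as a block. Etfa and Etfb encode the partners of 1 heterodimer, the flavoprotein that takes electrons from the dehydrogenases. Etfb read 11080.2 in RIIIS/J, against 5866 in C57BL/6J, 5581 in BALB/CByJ, 5196 in FVB/NJ and 5774 in NZW/LacJ, 1.89-fold above the next strain. Etfa read 11506 in BALB/CByJ, against 9801 in C57BL/6J, 8224 in FVB/NJ, 9177 in NZW/LacJ and 8999 in RIIIS/J, with RIIIS/J between FVB/NJ and NZW/LacJ. Etfdh, the ubiquinone oxidoreductase gene that passes the electrons on, read 4195 in BALB/CByJ, against 3344 in C57BL/6J, 3043 in FVB/NJ, 2145 in NZW/LacJ and 2794 in RIIIS/J. NZW/LacJ was lowest for Etfdh alone of the 3, and FVB/NJ was lowest for the heterodimer genes.

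In the peroxisomal route the thiolase genes were low in NZW/LacJ. Acaa1a read 256 in NZW/LacJ, against 546 in C57BL/6J, 644 in BALB/CByJ, 577 in FVB/NJ and 434 in RIIIS/J, 1.69-fold below the next lowest strain. Acaa1b, its close paralog, read 20095 in NZW/LacJ, against 44563 in C57BL/6J, 35701 in BALB/CByJ, 35701 in FVB/NJ and 35630.3 in RIIIS/J, 1.77-fold below. Near-identical copies can share signal, so the paralogs are uncertain as separate measurements, and both Acaa1a probe sets carry the suffix for possible cross-hybridisation. Both probe sets annotated to the pair together showed the same lowest strain, at 6916 in NZW/LacJ, against 11556 to 19455 on the other 4 arrays, and at 10904 in NZW/LacJ, against 19471 to 28360.1 on the other 4 arrays. Pex11a, a gene for peroxisome division and a PPAR-alpha target, had NZW/LacJ lowest by a smaller margin, at 865 in NZW/LacJ, against 1535 in C57BL/6J, 1522 in BALB/CByJ, 1097 in FVB/NJ and 1046 in RIIIS/J. The second Pex11a probe set had RIIIS/J lowest, at 280.4 in RIIIS/J, against 767 in C57BL/6J, 815 in BALB/CByJ, 565 in FVB/NJ and 343 in NZW/LacJ.

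Amacr and Crot departed in other strains. Amacr, the racemase gene that prepares branched acids and bile acid intermediates, read 978 in RIIIS/J, against 3982 in C57BL/6J, 4034 in BALB/CByJ, 2667 in FVB/NJ and 2873 in NZW/LacJ. RIIIS/J was 2.73-fold below the next lowest strain, the widest gap on the low side among the 36 genes. Decr2 followed at 2.67-fold below, in the same strain. Amacr and Decr2 each had 1 probe set, so no further one could be compared. Crot, which moves shortened chains onto carnitine for export from the peroxisome, read 5458 in FVB/NJ, against 10674 in C57BL/6J, 11086 in BALB/CByJ, 12464 in NZW/LacJ and 11905 in RIIIS/J. FVB/NJ was 1.96-fold below the next lowest strain, just under 2-fold, and the other 4 strains lay close together.

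The remaining genes of the route were nearer to level. Ehhadh, the bifunctional enzyme gene, spanned 1.24-fold, with 3801 in C57BL/6J, against 3062 in BALB/CByJ, 3274 in FVB/NJ, 3224 in NZW/LacJ and 3351 in RIIIS/J. Acox2, an oxidase gene for branched chains and bile acid intermediates, read 3749.7 in RIIIS/J, against 2979.9 in C57BL/6J, 2583 in BALB/CByJ, 2538 in FVB/NJ and 2324 in NZW/LacJ. Phyh, the phytanoyl-CoA hydroxylase gene of alpha-oxidation, read 42632 in C57BL/6J, against 38136 in BALB/CByJ, 37216 in FVB/NJ, 36568 in NZW/LacJ and 40058 in RIIIS/J. NZW/LacJ was lowest for Acox2 and Phyh, 1.09-fold and 1.02-fold below the next strain.

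The ketone step held 2 members, and both were highest in BALB/CByJ. Acat1, the mitochondrial acetoacetyl-CoA thiolase gene that acts in ketone formation and in isoleucine breakdown, read 13704 in BALB/CByJ, against 9687 in C57BL/6J, 6916 in FVB/NJ, 7914 in NZW/LacJ and 9041 in RIIIS/J. Bdh1, which interconverts acetoacetate and 3-hydroxybutyrate, read 4658 in BALB/CByJ, against 3864 in C57BL/6J, 3902 in FVB/NJ, 2633 in NZW/LacJ and 4401 in RIIIS/J. Acat1 was lowest in FVB/NJ and Bdh1 in NZW/LacJ. A second Bdh1 probe set had BALB/CByJ highest by a wider margin, at 1223 in BALB/CByJ, against 384 in C57BL/6J, 614 in FVB/NJ, 406 in NZW/LacJ and 459.6 in RIIIS/J, and it had C57BL/6J rather than NZW/LacJ lowest.

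**Figure D2:**
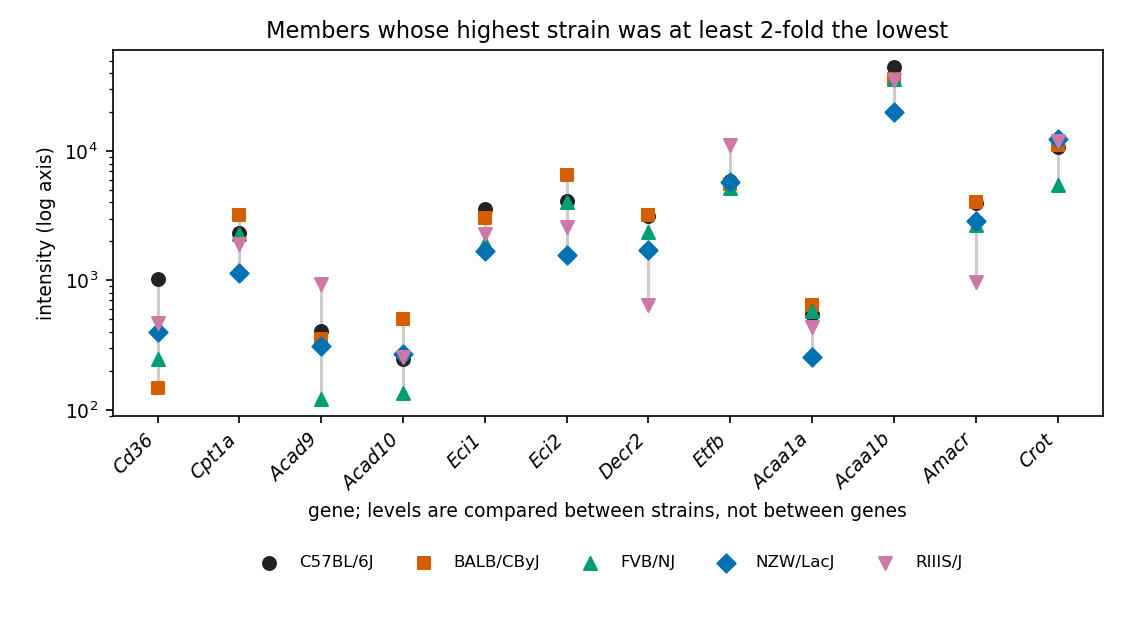
Intensity on a log axis (1 array per strain) of the 12 genes whose highest strain was at least 2-fold the lowest, with 1 symbol per strain joined by a line within each gene. NZW/LacJ is the low point of Cpt1a, Eci1, Eci2, Acaa1a and Acaa1b, RIIIS/J that of Decr2 and Amacr, and FVB/NJ that of Acad9, Acad10, Etfb and Crot.

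The range of the 36 genes was close to that of the whole array. The highest strain was at least 2-fold the lowest for 12 genes (33.3%), against 30.5% of all detected genes, and the median range was 1.77-fold for the 36 genes and 1.59-fold for all. A further 13 genes spanned 1.5-fold to 2-fold, and 11 less than 1.5-fold. A strain stood at least 2-fold from its nearest neighbour for 4 genes (Cd36, Acad9, Decr2 and Amacr, 11.1%), against 12% of all detected genes. Both shares were near the background. Of the 1425 detected genes with a strain 2-fold apart, 690 were high in FVB/NJ.

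The order of the strains was less even. The genes were chosen with earlier results of these data known, so the shares are a description and not a test. NZW/LacJ was the lowest strain for 20 of 36 genes (55.6%), against 16.8% of all detected genes. BALB/CByJ was the highest for 18 (50%), against 21.6%. C57BL/6J was highest for 9 genes, or 25%, where the background was 19.4%, and RIIIS/J for 7, or 19.4%, where it was 17.5%. Only 2 genes, Echs1 and Crot, were highest in NZW/LacJ (5.56%, background 16.9%), and none was highest in FVB/NJ (background 23.5%). Of all detected genes, 690 were at least 2-fold above the nearest strain in FVB/NJ, against 58 to 115 in the other strains. These are part of the FVB/NJ background, and the part of other cells in them was not tested. FVB/NJ was lowest for 10 genes (27.8%, background 26.2%), near its background. RIIIS/J was lowest for 3, Hadhb, Decr2 and Amacr (8.33%, background 22.6%). BALB/CByJ was lowest for 2, Cd36 and Ehhadh (5.56%, background 12.2%), and C57BL/6J for Acaa2 alone (2.78%, background 11.5%). The commonest pairing of extremes was BALB/CByJ highest with NZW/LacJ lowest, in 9 genes. The share of this pairing over all detected genes was not worked out.

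**Figure D3:**
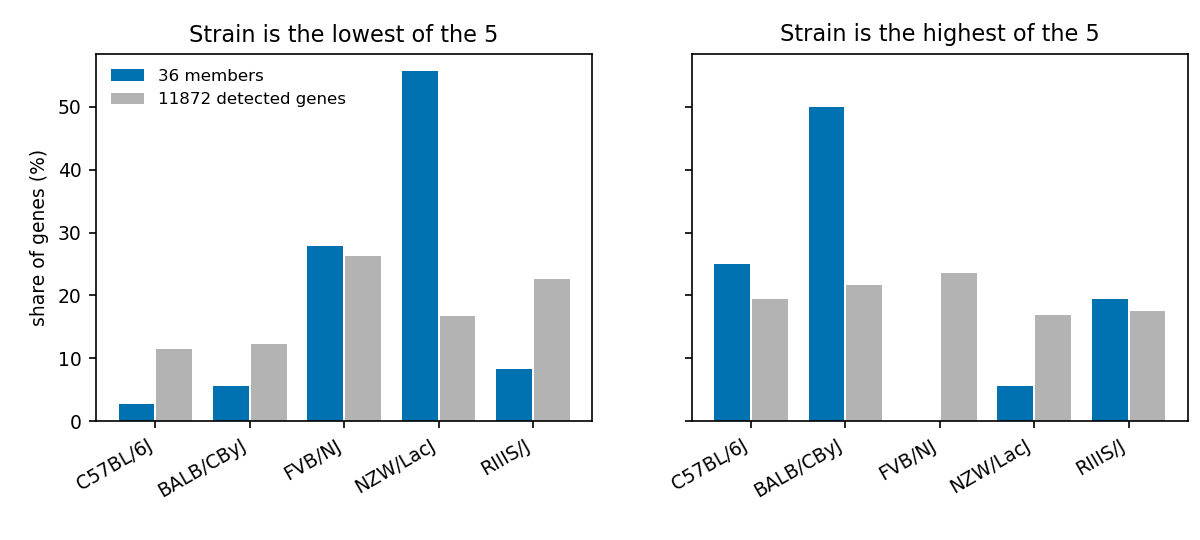
Share of genes (percent) for which each strain was the lowest (left) or the highest (right) of the 5, with blue bars for the 36 fatty acid oxidation genes and grey bars for the 11872 detected genes. The blue bar is at 55.6% for NZW/LacJ on the left and at 50% for BALB/CByJ on the right, against grey bars of 16.8% and 21.6%. The 36 genes were chosen with earlier results of these data known.

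Abundant genes are measured with less influence of the floor, so the counts were repeated among the 1863 genes with a mean log2 intensity of at least 10. Of the 31 members in this range, 19 were lowest in NZW/LacJ (61.3%), against 20.9% of all such genes, and 15 were highest in BALB/CByJ (48.4%), against 22.3%. Without the FVB/NJ and RIIIS/J arrays, a choice made after seeing the data, NZW/LacJ was the lowest of 3 strains for 28 of 36 genes, against 33.5% of all genes, and BALB/CByJ the highest for 18, against 33.9%.

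Most of these differences were small. At a gap of 1.5-fold from the nearest strain, NZW/LacJ was low for 4 genes, Cpt1a, Eci2, Acaa1a and Acaa1b (11.1%), against 2.29% of all detected genes. Acaa1a and Acaa1b can share signal, so they may not be separate calls. A further Cpt1a probe set had RIIIS/J rather than NZW/LacJ lowest. FVB/NJ was low for Acad9, Acad10 and Crot (8.33%, background 2.22%). RIIIS/J was low for Decr2 and Amacr (5.56%, background 4.51%) and high for Acad9 and Etfb (5.56%, background 2.43%). BALB/CByJ was high for Acad10 and Eci2 (5.56%, background 2.64%) and low for Cd36 (2.78%, background 0.994%). C57BL/6J was high for Cd36 (2.78%, background 1.34%). Each of these counts is of 4 genes or fewer.

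As a median over the 36 genes, the log2 difference of a strain from the mean of the other 4 was -0.27 in NZW/LacJ, against 0.17 in C57BL/6J, 0.25 in BALB/CByJ, -0.07 in FVB/NJ and -0.01 in RIIIS/J. Over all detected genes the same medians lay between -0.02 and 0.0026. In NZW/LacJ 28 of 36 genes lay below the mean of the others, while 30 lay above it in C57BL/6J and 28 in BALB/CByJ. Of all detected genes, 45.6% lay above it in NZW/LacJ, 50.1% in C57BL/6J and 50.6% in BALB/CByJ. Set against single strains, the median NZW/LacJ difference was -0.36 from C57BL/6J (31 of 36 genes lower), -0.37 from BALB/CByJ (31 lower), -0.21 from RIIIS/J (26 lower) and -0.08 from FVB/NJ (23 lower). The shares of all detected genes that were lower were 49.6%, 46.1%, 39.0% and 44.9%, in the same order. The C57BL/6J median rested largely on NZW/LacJ: without the NZW/LacJ array it was 0.03, and 0.0073 over the mitochondrial genes. The strain differences share arrays and are not independent of each other.

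Mitochondrial and peroxisomal members were compared as groups. The 20 mitochondrial genes had a median of -0.29 in NZW/LacJ, against 0.09 in C57BL/6J, 0.32 in BALB/CByJ, -0.21 in FVB/NJ and -0.04 in RIIIS/J. The 10 peroxisomal genes, which here include Eci2 and Decr2, had a median of -0.27 in NZW/LacJ, against 0.31 in C57BL/6J, 0.33 in BALB/CByJ, 0.0041 in FVB/NJ and -0.07 in RIIIS/J. Acad11, Eci2 and Amacr have 2 reported locations. Without them the BALB/CByJ median was 0.30 over the mitochondrial and 0.16 over the peroxisomal genes. NZW/LacJ was lowest for 11 of the 20 and 6 of the 10 (background 16.8%). The peroxisomal NZW/LacJ median was -0.11 without probe sets ending in _s_at, _x_at or _a_at and -0.47 without the RIIIS/J array. In C57BL/6J 10 of 10 peroxisomal and 15 of 20 mitochondrial genes lay above the mean of the other strains, as did 50.1% of all detected genes. Without the genes with 2 reported locations, the C57BL/6J medians were 0.26 over the peroxisomal and 0.09 over the mitochondrial genes. In FVB/NJ the mitochondrial median was negative and the peroxisomal one near 0. Against C57BL/6J alone both FVB/NJ medians were negative, at -0.15 over the mitochondrial and -0.28 over the peroxisomal genes. These groups are small, and a difference between compartments was not tested. The 2 ketone genes stood at -0.47 in NZW/LacJ and 0.54 in BALB/CByJ, and the 4 uptake genes at -0.03 in NZW/LacJ and 0.28 in C57BL/6J. By step, the NZW/LacJ median was -0.49 for double bond enzymes, -0.46 for the carnitine shuttle, -0.30 for acyl-CoA dehydrogenases and -0.19 for electron transfer.

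Oxidative phosphorylation genes showed another order of strains, while the tricarboxylic acid cycle had its lowest and highest medians in the same strains as the oxidation genes. The 30 oxidative phosphorylation genes had a median of 0.05 in NZW/LacJ, against -0.0031 in C57BL/6J, 0.05 in BALB/CByJ, -0.26 in FVB/NJ and 0.11 in RIIIS/J, and NZW/LacJ was lowest for 3 of them while FVB/NJ was lowest for 22. The 15 genes of the tricarboxylic acid cycle, which burns the acetyl-CoA, had a median of -0.20 in NZW/LacJ, against 0.06 in C57BL/6J, 0.25 in BALB/CByJ, -0.18 in FVB/NJ and 0.08 in RIIIS/J. FVB/NJ was lowest for 7 of those 15 genes and NZW/LacJ for 5, and BALB/CByJ was highest for 9. Over all detected genes the shares were 26.2%, 16.8% and 21.6%. The 18 fatty acid and triglyceride synthesis genes were low in NZW/LacJ too, where 11 of them had their lowest value, and had a median of -0.43 in NZW/LacJ, against 0.45 in C57BL/6J, -0.01 in BALB/CByJ, 0.18 in FVB/NJ and 0.04 in RIIIS/J. C57BL/6J rather than BALB/CByJ was the high strain for synthesis genes, highest for 9 of the 18 (background 19.4%). The background for NZW/LacJ as the lowest strain was 16.8%.

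**Figure D4:**
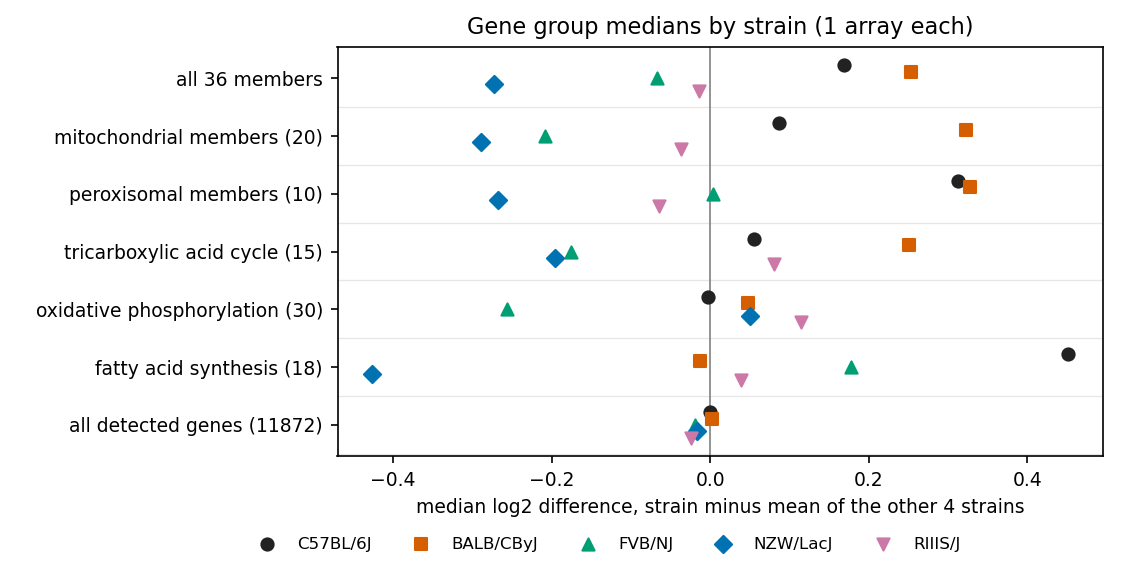
Median log2 difference of each strain from the mean of the other 4 (horizontal axis) for the fatty acid oxidation genes, their mitochondrial and peroxisomal members, 3 other gene lists and all detected genes, with 1 symbol per strain. NZW/LacJ lies left of 0 for oxidation (-0.27), the tricarboxylic acid cycle (-0.20) and synthesis (-0.43), and right of it for oxidative phosphorylation (0.05).

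Where a gene had more than 1 probe set, the probe sets mostly gave the same side for NZW/LacJ. For 15 genes with at least 2 probe sets above the floor on all arrays, every probe set lay below the mean of the other strains in NZW/LacJ for 11 genes and above it for none. Every probe set lay above the mean of the others in BALB/CByJ for 12 of the 15 genes and in C57BL/6J for 9. The same shares over all genes with several probe sets were not worked out, so these counts have no background beside them. Among the 20 further probe sets, 14 had the same highest strain as the chosen one and 10 the same lowest.

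**Figure D5:**
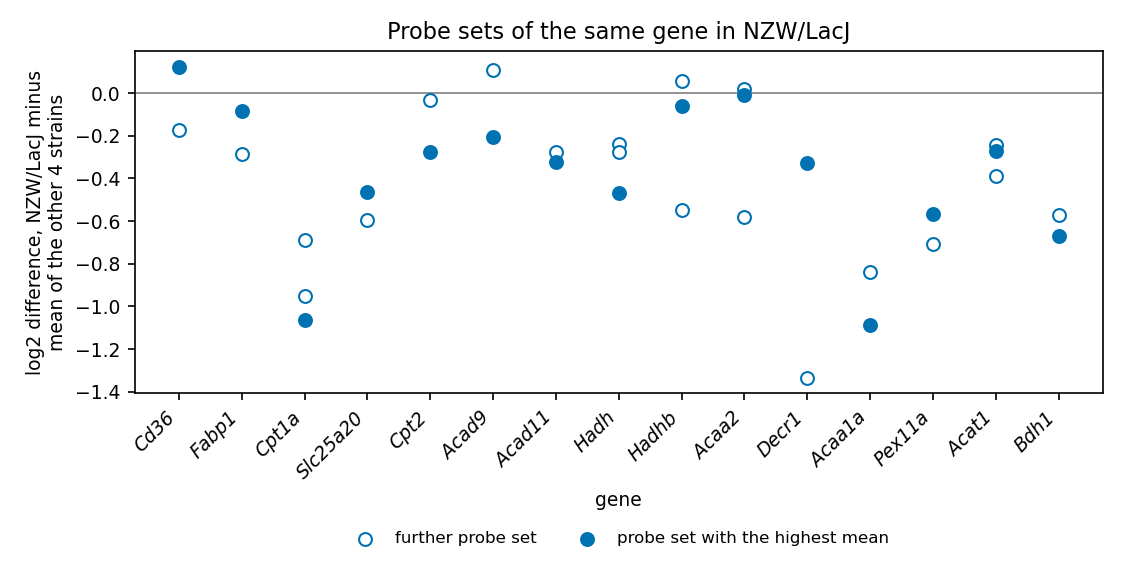
Log2 difference of NZW/LacJ from the mean of the other 4 strains (vertical axis) for each probe set of the 15 genes with at least 2 probe sets above the floor on all arrays, filled for the probe set with the highest mean and open for the others. For 11 genes all symbols lie below 0, and Cd36, Acad9, Hadhb and Acaa2 have symbols on both sides.

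The 4 genes with NZW/LacJ at least 1.5-fold below the next strain are shown by the 250 bases upstream of their starts (RefSeq, GRCm38.p6, 5′ to 3′), because their low values fell together in 1 strain. Capitals mark the CCAAT box, searched as CCAAT on both strands. Cpt1a lies at chr19:3323051-3323300 on the plus strand, Eci2 at chr13:34994145-34994394 on the minus strand, Acaa1a at chr9:119341044-119341293 on the plus strand and Acaa1b at chr9:119157094-119157343 on the minus strand.
Cpt1a: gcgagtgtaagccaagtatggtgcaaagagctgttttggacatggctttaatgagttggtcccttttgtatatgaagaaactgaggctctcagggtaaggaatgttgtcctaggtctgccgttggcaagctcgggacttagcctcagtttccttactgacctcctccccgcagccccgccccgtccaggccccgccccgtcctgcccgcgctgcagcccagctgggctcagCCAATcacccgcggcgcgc
Eci2: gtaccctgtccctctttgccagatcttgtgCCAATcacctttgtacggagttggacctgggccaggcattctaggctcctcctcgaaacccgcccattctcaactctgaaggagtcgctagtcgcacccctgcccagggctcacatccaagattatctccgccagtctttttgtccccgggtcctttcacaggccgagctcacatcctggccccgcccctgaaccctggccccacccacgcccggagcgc
Acaa1a: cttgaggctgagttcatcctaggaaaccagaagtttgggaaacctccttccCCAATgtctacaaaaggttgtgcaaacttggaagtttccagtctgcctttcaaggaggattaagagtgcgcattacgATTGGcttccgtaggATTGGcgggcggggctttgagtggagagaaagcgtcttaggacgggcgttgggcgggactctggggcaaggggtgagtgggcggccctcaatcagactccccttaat
Acaa1b: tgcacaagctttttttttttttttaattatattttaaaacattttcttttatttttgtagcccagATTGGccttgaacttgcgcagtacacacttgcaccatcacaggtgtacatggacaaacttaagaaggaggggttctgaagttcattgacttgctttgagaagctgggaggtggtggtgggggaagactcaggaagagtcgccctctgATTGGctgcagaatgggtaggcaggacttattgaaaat
The reference sequence is that of the C57BL/6J assembly, so it holds no NZW/LacJ allele. All 4 promoters held a CCAAT box, which 14 of the 34 member promoters (41.2%) and 33.8% of all promoters held. A GC box, searched as GGGCGG on both strands, was in 3 of the 4, in 55.9% of member promoters and in 32.7% of all. No CCAAT box overlapped a GC box. The paralogs Acaa1a and Acaa1b both lie on chromosome 9.

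Further genes of the pathway outside the 37 were read from a separate list, of which 27 had a probe set and 26 were detected. NZW/LacJ was lowest for 8 of the 26, where the share over all detected genes was 16.8%. The NZW/LacJ median was -0.02, so the list as a whole did not share the low median of the 36 genes. Some of its members did read low in NZW/LacJ. Slc22a5, the plasma membrane carnitine transporter gene, read 80.9 in NZW/LacJ, against 353 in C57BL/6J, 517 in BALB/CByJ, 337 in FVB/NJ and 353 in RIIIS/J. Crat, the carnitine acetyltransferase gene, read 94.1 in NZW/LacJ, against 271 in C57BL/6J, 391 in BALB/CByJ, 252 in FVB/NJ and 271 in RIIIS/J. Both concern carnitine, as do the shuttle genes and Crot, but Crot was highest in NZW/LacJ. Whether carnitine genes as a set differed there was not tested. Ech1, a dienoyl-CoA isomerase gene, read 2711 in NZW/LacJ, against 6574 in C57BL/6J, 7021 in BALB/CByJ, 4934 in FVB/NJ and 6687 in RIIIS/J. Nudt19, a peroxisomal coenzyme A hydrolase gene, read 224 in NZW/LacJ, against 565 in C57BL/6J, 557 in BALB/CByJ, 483 in FVB/NJ and 426 in RIIIS/J. Other members of the list were high in 1 strain. Hacl1, the lyase gene that follows Phyh in alpha-oxidation, read 14382 in RIIIS/J, against 5219 in C57BL/6J, 4394 in BALB/CByJ, 4581 in FVB/NJ and 8504 in NZW/LacJ. Abcd2, a peroxisomal transporter gene for very long chains, read 78.1 in BALB/CByJ, against 33.0 in C57BL/6J, 25.5 in FVB/NJ, 11.4 in NZW/LacJ and 11.2 in RIIIS/J.

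Of 17 detected regulators of the pathway, 3 were lowest in NZW/LacJ (background 16.8%) and 8 in RIIIS/J (background 22.6%). Their median was -0.24 in NZW/LacJ, against 0.44 in C57BL/6J, 0.35 in BALB/CByJ, 0.03 in FVB/NJ and -0.27 in RIIIS/J. Ppara, the gene of the nuclear receptor PPAR-alpha, was not lowest in NZW/LacJ, at 4172 in C57BL/6J, against 2267 in BALB/CByJ, 3612 in FVB/NJ, 2786 in NZW/LacJ and 3332 in RIIIS/J. Rxra, the gene of its dimer partner, read 1897 in BALB/CByJ, against 1697 in C57BL/6J, 1390.5 in FVB/NJ, 1165 in NZW/LacJ and 879 in RIIIS/J. Ppargc1a, a coactivator gene, read 234 in RIIIS/J, against 146 in C57BL/6J, 191 in BALB/CByJ, 112 in FVB/NJ and 132 in NZW/LacJ. Lpin1, a phosphatidate phosphatase and coactivator gene, read 60.6 in RIIIS/J, against 606 in C57BL/6J, 552 in BALB/CByJ, 322 in FVB/NJ and 178 in NZW/LacJ. Klf15, a fasting-responsive transcription factor gene, read 1194 in NZW/LacJ, against 2342 in C57BL/6J, 2276 in BALB/CByJ, 1890.2 in FVB/NJ and 1750.4 in RIIIS/J. Hnf4a, the hepatocyte transcription factor gene, stayed within 3203 to 3591.

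Several other gene groups differed between the same arrays. The 14 acute phase genes had a median of 0.95 in NZW/LacJ, with 14 of 14 above the mean of the other strains, and Saa1, a serum amyloid gene, read 18764 in NZW/LacJ, against 449 to 1310.0 on the other 4 arrays. The 5 Kupffer cell markers summed to 3532 in NZW/LacJ, against 1656 to 2500.0 on the other 4 arrays, while the hepatocyte markers summed to 266127 there. Of the Kupffer cell markers, Clec4f and Cd5l were highest in NZW/LacJ, and Adgre1, Vsig4 and Marco in other strains. The 15 detected circadian clock genes had medians of -1.34 in RIIIS/J, against 0.32 in C57BL/6J, 0.89 in BALB/CByJ, 0.27 in FVB/NJ and -0.44 in NZW/LacJ. Single clock genes went both ways, and in RIIIS/J 10 lay below the mean of the other strains and 5 above it. Arntl read 156 in RIIIS/J and 68.1 in NZW/LacJ, against 13.7 in C57BL/6J, 14.1 in BALB/CByJ and 14.1 in FVB/NJ. Clock and Nfil3 were also highest in RIIIS/J, with NZW/LacJ next. Dbp, a clock output gene, read 75.5 in RIIIS/J, against 6439 in C57BL/6J, 8951 in BALB/CByJ, 4939.5 in FVB/NJ and 1023 in NZW/LacJ. The hour at which livers were taken and the feeding state are not given in the sources, and many oxidation genes follow both. The 12 pericentral genes had a median of -0.18 in NZW/LacJ, against 0.48 in C57BL/6J, -0.05 in BALB/CByJ, -0.42 in FVB/NJ and 0.16 in RIIIS/J, and the 10 periportal genes -0.03 in NZW/LacJ, against 0.10 in C57BL/6J, -0.22 in BALB/CByJ, -0.05 in FVB/NJ and 0.32 in RIIIS/J. The part of the acute phase, the clock, other cells or zonation in the strain order was not tested.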

How the data were processed

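Liver RNA pools of 5 strains were hybridised to 1 Affymetrix array each. The deposited values are normalised intensities on a linear scale, for which the submitters' processing notes name GCRMA and GCOS; their versions are not given in the sources used here. Precision is limited by the number of arrays.

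Deposited intensities were converted to log2, with lower values set to the floor. Of 45101 probe sets, 34958 had 1 gene in the platform annotation, 932 had several and 9211 none; 34754 matched the RefSeq gene table. Equal values on 2 or more arrays occurred in 4 members and in 32.9% of detected genes. Named genes were all members, with full values for those 1.5-fold from the nearest strain, 2-fold in range, in the ketone step or most level in a step, and genes of fixed lists. Members and lists were chosen with earlier results of these data known. Python 3.11.15, numpy 2.4.6, pandas 2.3.3 and matplotlib 3.10.9 were used. The gap rule was tested on simulated data. Alternatives changed the floor, the probe set, the scaling, the threshold, the comparison strains and the arrays used.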

Additional observations from a re-analysis of the deposited data

How the results depend on the processing

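Of 263 recomputed values over 19 results, 253 stayed within 0.21 on the log2 scale (medians) or 1.5-fold (counts) of the reported value and 10 moved further. Several reported medians were smaller than 0.21, among them 0.17 in C57BL/6J and -0.07 in FVB/NJ. For these, staying within the limit does not show that the difference held. Of 211 recomputed medians 13 changed sign, all of them for RIIIS/J or for the peroxisomal genes in FVB/NJ, whose reported medians were at most 0.07 in size, so no direction is given for these. The count of genes lowest in NZW/LacJ ranged from 16, with the second probe set of each gene, to 28, without the FVB/NJ and RIIIS/J arrays, and the count highest in BALB/CByJ from 15 to 21. The NZW/LacJ median ranged from -0.39 to -0.24 on the log2 scale, and over the peroxisomal genes from -0.65 to -0.11. The C57BL/6J median ranged from 0.03, without the NZW/LacJ array, to 0.23. Against C57BL/6J alone, the BALB/CByJ median was 0.0298 over all 36 genes, 0.10 over the mitochondrial and 0.0034 over the peroxisomal genes. The peroxisomal medians against C57BL/6J alone were -0.65 in NZW/LacJ, -0.33 in RIIIS/J and -0.28 in FVB/NJ. Without the FVB/NJ and RIIIS/J arrays the peroxisomal NZW/LacJ median was -0.65. At a threshold of 1.5-fold, 11 genes had a strain apart, against 25.9% of all detected genes, and 25 had that range, against 56.5%. Without the FVB/NJ and RIIIS/J arrays the number with a 2-fold range was 7, against 13.0% of all genes, since Acad9, Decr2, Etfb, Amacr and Crot lost an extreme. The added settings on arrays were chosen after seeing the data. No paired analysis was possible because only 1 array was made from each strain. The limit of 0.21 is the median disagreement between probe sets of single genes, over 4561 genes, and is not the error of a group median.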

Other observations

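Targets of PPAR-alpha outside fatty acid oxidation shared the low NZW/LacJ median of the oxidation genes but not the high BALB/CByJ one. Their 13 detected members had a median of -0.72 in BALB/CByJ, against 0.59 in C57BL/6J, -0.04 in FVB/NJ, -0.84 in NZW/LacJ and 0.25 in RIIIS/J, so that BALB/CByJ, the strain most often highest for oxidation genes, was low here. Cyp4a14, a fatty acid omega-hydroxylase gene, read 3879.5 in C57BL/6J, against 29.3 in BALB/CByJ, 86.9 in FVB/NJ, 9.71 in NZW/LacJ and 65.7 in RIIIS/J. Vnn1, a pantetheinase gene, read 2557 in C57BL/6J, against 45.5 in BALB/CByJ, 33.1 in FVB/NJ, 33.0 in NZW/LacJ and 34.2 in RIIIS/J. Both were highest in C57BL/6J, as Cd36 was. Pdk4, the kinase gene that restrains glucose oxidation in fasting, read 277 in RIIIS/J, against 80.0 in C57BL/6J, 54.8 in BALB/CByJ, 50.8 in FVB/NJ and 59.5 in NZW/LacJ. Angptl4, a lipoprotein lipase inhibitor gene that responds to fasting, read 1648 in BALB/CByJ, against 1497 in C57BL/6J, 970.2 in FVB/NJ, 567 in NZW/LacJ and 443 in RIIIS/J. Acot3, a peroxisomal thioesterase gene, read 718 in FVB/NJ, against 233 in C57BL/6J, 42.2 in BALB/CByJ, 11.8 in NZW/LacJ and 113 in RIIIS/J. These 3 genes were highest in 3 different strains.

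Genes of ketone use and export also differed. Oxct1, which activates acetoacetate in organs that burn ketones and is known to be low in hepatocytes, read 281 in FVB/NJ, against 52.8 in C57BL/6J, 65.9 in BALB/CByJ, 94.3 in NZW/LacJ and 41.2 in RIIIS/J. The FVB/NJ array also had the highest sums of B cell, T cell and erythroid markers, with T cell markers at 219 in FVB/NJ, against 19.6 to 20.5 on the other 4 arrays, and the part of such cells in the Oxct1 value was not tested. Slc16a1, a monocarboxylate carrier gene that moves ketone bodies and lactate, read 3608 in NZW/LacJ, against 1473 in C57BL/6J, 2098 in BALB/CByJ, 2016 in FVB/NJ and 2492 in RIIIS/J.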
